A study of Homo sapiens with 15 samples.

Results

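The earliest response of K562 cells to valproic acid (VPA) was measured on 3 of the 15 arrays of a time series, those taken 2 h after 1 mM VPA was added. Each array carried RNA of treated cells in one dye and RNA of untreated cells of the same time point in the other, so every value is a ratio of treated over untreated RNA. The arrays were chosen by their time label alone. K562 is a human erythroleukaemia line that grows as a suspension of blast-like cells. The dye of the treated RNA was Cy5 for replicates 1 and 2, and it was Cy3 for replicate 3, where the dyes were exchanged. Each replicate came from its own thawing of the line, and the line is a single transformed culture, so the replicates are separate cultures and not separate donors. The other 12 arrays held the same comparison after 6, 10, 48 and 72 h, with 3 arrays at each time.

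VPA is a branched short-chain fatty acid used against epilepsy, and it inhibits class I histone deacetylases, the enzymes that take acetyl groups off histone tails. Histones then gather acetyl groups, which loosens nucleosomes and is read by bromodomain proteins. Such inhibitors are known to raise inhibitors of the cell cycle and to lower MYC in leukaemia cells.

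The table held 45220 probes, and probes with a single gene gave ratios for 18334 genes. Ratios were small at 2 h: their SD over genes was 0.21, 0.18 and 0.16 on the log2 scale on replicates 1, 2 and 3, against 0.26 to 0.41 on the arrays of the later times. The median log2 ratio over genes was 0.01 on each 2 h array. No expression level could be read from the ratios, so the markers of the line were checked for a difference alone: of 9 measured erythroid markers 0 were higher and 1 was lower in treated cells, and the 8 measured markers of other lineages lay between −0.12 and 0.10.

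The array with exchanged dyes was set against the other two before any result was taken from it. Over genes, replicate 3 correlated with replicate 1 at r = 0.507 and with replicate 2 at r = 0.469, and replicates 1 and 2 correlated at 0.668. Over the 13795 probes with no gene in the annotation, replicate 3 went the opposite way, with r = −0.618 and −0.673, while replicates 1 and 2 correlated at 0.819. Of the 108 such probes with a log2 ratio above 1 on both replicates 1 and 2, 106 were below −1 on replicate 3. Of the 39 gene probes above 1 on both, 0 were below −1 and 39 were above 0 on replicate 3. Gene probes therefore kept their direction when the dyes were exchanged, and most strong probes without a gene turned theirs. Over all probes together the 2 kinds cancelled and the correlations of replicate 3 were −0.0502 and −0.119. The values of replicate 3 were used as deposited. With its sign turned, limma called 0 genes higher and 0 lower at 2 h, with 293 higher and 266 lower at an unadjusted p under 0.05. A loss of calls follows from the positive correlations over genes, so it is not a separate check of the direction.

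**Figure D1:**
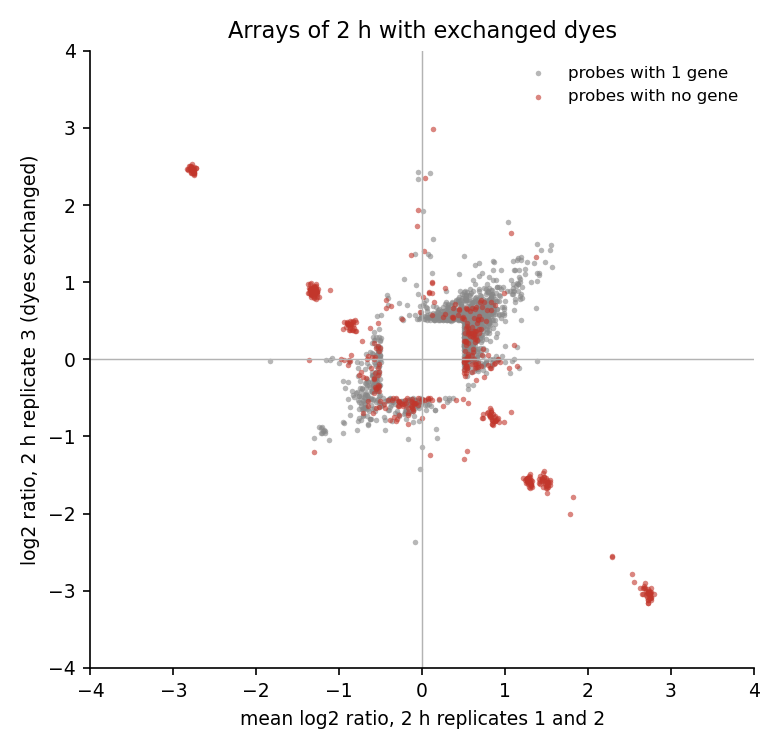
Log2 ratio of each probe on the 2 h array with exchanged dyes (vertical axis) against the mean of the other 2 h arrays (horizontal axis), for the 1230 gene probes (grey) and 506 probes without a gene (red) whose ratio passed 0.5 in size on either axis. Grey points run up to the right; most red points with a high horizontal value lie near the bottom right.

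At 2 h 884 genes, 4.82% of the 18334 tested, were higher in treated cells and 281, 1.53%, were lower (limma, Benjamini-Hochberg adjusted p under 0.05). Among the higher genes the median size was 0.35 on the log2 scale and 19 were at least 2-fold higher. Among the lower genes the median size was 0.32 and 1, MIR17HG, was at least 2-fold lower. Because the RNA came from whole cultures, fewer cells of a type and less RNA per cell cannot be told apart. All 3 arrays had the same sign for 874 of the higher and 274 of the lower genes, which the selection by a test on these arrays favours. Over all genes 42.7% had the same sign on all 3 arrays. Where a called gene had several probes, all of them pointed the same way for 407 of 434 higher and 116 of 128 lower genes. These probes were averaged into the ratio that was tested, so the selection favours this as well. The counts depended on single arrays: 433, 532 and 328 genes were higher and 93, 157 and 70 were lower without 2 h replicate 1, 2 and 3. Called in the same direction in each of these 3 fits were 294 higher and 56 lower genes. Protein-coding genes were called higher in 5.13% and lower in 1.54% of cases. The 1063 measured long non-coding RNA genes were as often lower as higher, with 18 each.

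The highest genes at 2 h came from many classes of protein. PNRC1, a nuclear receptor coactivator, had log2 ratios of 1.26, 1.14 and 1.29 in replicates 1, 2 and 3, the order kept below. Limma, fitted with a dye term over all 15 arrays, put its ratio at 1.26 ± 0.20 (SE), 2.39-fold, with an adjusted p of 0.00212. HECA, the human counterpart of the Drosophila gene headcase, had 1.37, 1.01 and 1.33 (1.25 ± 0.10, adjusted p = 3.22e-05). CDKN2D, which encodes the cyclin-dependent kinase inhibitor p19INK4d, had 1.19, 1.30 and 1.17 (1.19 ± 0.14, adjusted p = 2.78e-04). All 3 genes were above 1 on every array, in all 3 thawings and both dye orientations.

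MARCHF9, a membrane-bound RING-CH ubiquitin ligase, had the smallest error among the highest genes, with 1.12, 1.07 and 1.27 on the 3 arrays (1.19 ± 0.06, adjusted p = 3.00e-06). GLRX, which encodes the thiol reductase glutaredoxin, had 1.21, 1.61 and 1.10 (1.24 ± 0.14), with replicate 2 well above the other two. FBXL16, an F-box protein gene, had 1.47, 1.30 and 1.01 (1.16 ± 0.17) and was lowest on the array with exchanged dyes. EFNA1, which encodes ephrin-A1, a membrane-tethered ligand of Eph receptors, had 1.16, 1.22 and 1.16 (1.15 ± 0.10), nearly the same value on each array. HEY1, a basic helix-loop-helix repressor and Notch target, had 1.24, 1.12 and 1.00 (1.08 ± 0.10). USP35, a deubiquitinase, and BTN2A2, a butyrophilin of the immunoglobulin superfamily, were at 1.16 ± 0.12 and 1.17 ± 0.11. The remaining genes among the 15 highest were RNF122, a RING finger gene (1.14 ± 0.21), TMEM51 (1.06 ± 0.10), PGM2L1, which makes glucose 1,6-bisphosphate (1.06 ± 0.08), TMEM243 (1.06 ± 0.17) and ZNF823, a zinc finger gene (1.05 ± 0.10). RNF122 had the widest error of the 15, and its call ended when replicate 3 was left out (adjusted p = 0.0821 without 2 h replicate 3).

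**Figure D2:**
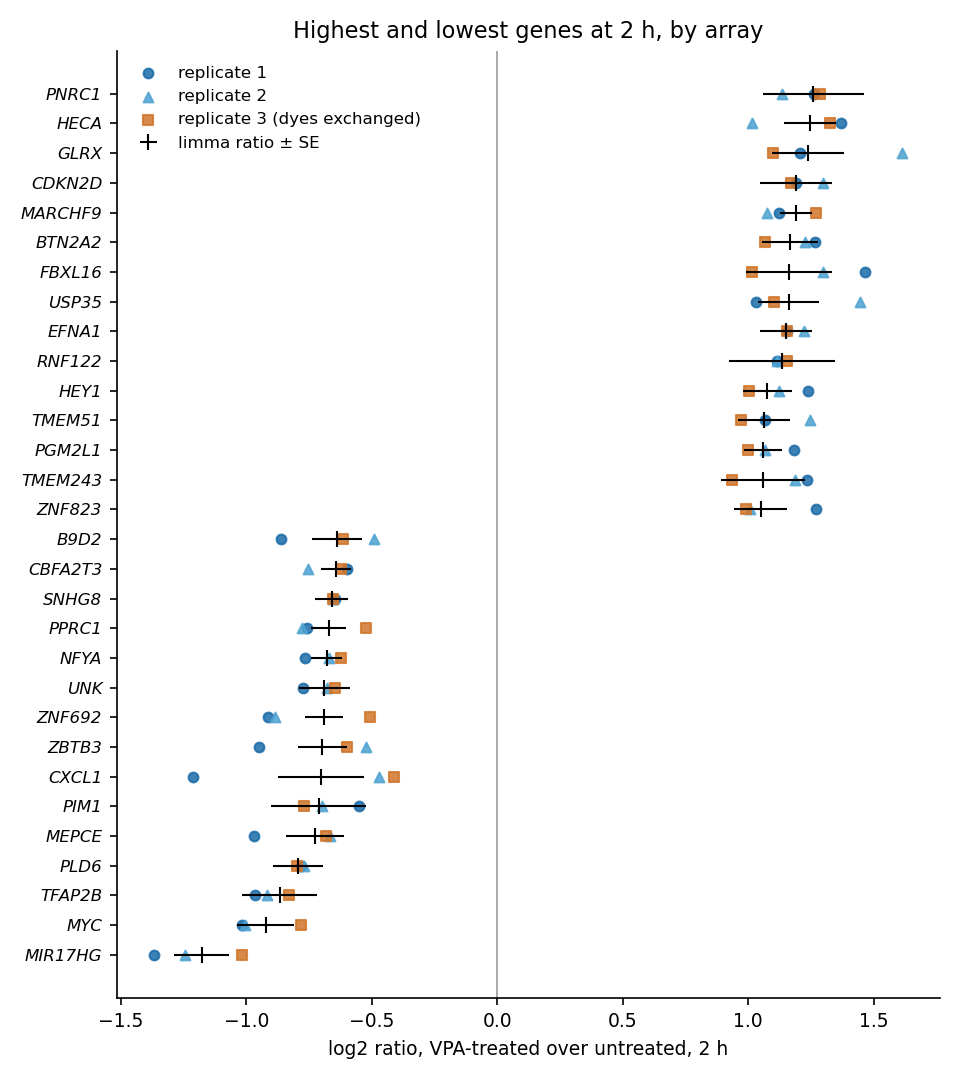
Log2 ratio of treated over untreated RNA at 2 h for the 15 highest genes and the 15 lowest, among those passing with the same sign on all 3 arrays; points are single arrays (circle, triangle and square for replicates 1, 2 and 3) and black bars the limma ratio ± SE. All highest genes lie near or above 1 on every array, and MIR17HG and MYC are the lowest.

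The lowest gene at 2 h was MIR17HG, the host transcript of the miR-17 to miR-92a cluster, a set of microRNAs that MYC is known to activate and that promotes proliferation in blood cells. Its ratios were −1.37, −1.24 and −1.02, a fall to 0.442 of the untreated level (−1.18 ± 0.11, adjusted p = 5.19e-05). All 3 arrays were below −1. The array measured the host transcript and not the mature microRNAs. The main-arm sequences that this transcript encodes are printed to show its content (RefSeq, GRCh38.p14), with the seed, bases 2 to 8, in capitals.
hsa-miR-17-5p (chr13:91350618-91350640, plus strand): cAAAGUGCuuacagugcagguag
hsa-miR-20a-5p (chr13:91351072-91351094, plus strand): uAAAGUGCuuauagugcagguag
hsa-miR-18a-5p (chr13:91350756-91350778, plus strand): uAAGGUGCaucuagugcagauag
hsa-miR-19a-3p (chr13:91350939-91350961, plus strand): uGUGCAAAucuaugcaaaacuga
hsa-miR-19b-3p (chr13:91351245-91351267, plus strand): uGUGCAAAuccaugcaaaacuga
hsa-miR-92a-3p (chr13:91351361-91351382, plus strand): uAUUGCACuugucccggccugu
By seed these fall into 4 groups: miR-17 and miR-20a share AAAGUGC, miR-19a and miR-19b share GUGCAAA, and miR-18a (AAGGUGC) and miR-92a (AUUGCAC) each have their own.

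MYC itself, the transcription factor that drives growth and ribosome genes, was the next lowest, with −1.02, −1.01 and −0.78 on the 3 arrays (−0.92 ± 0.11, 0.527 of the untreated level, adjusted p = 3.15e-04). Its 12 probes gave estimates between −1.12 and 0.05. The MYC network list held 14 measured genes, of which 3 were higher and 2, MYC and MIR17HG, were lower. These are 21.4% and 14.3% of the list, beside 4.82% and 1.53% of all genes. The 3 higher genes all encode proteins known to bind MAX in place of MYC and to repress its targets. MXI1 had 1.30, 0.66 and 0.60 (0.80 ± 0.13, adjusted p = 0.0028), with replicate 1 well above the other two. MXD1 had 0.30, 0.38 and 0.29 (0.31 ± 0.06), with its 3 probes between 0.01 and 0.67, and its call ended at an adjusted p of 0.0804 without 2 h replicate 3. MNT had 0.26, 0.18 and 0.24 (0.22 ± 0.04), with its 2 probes at −0.09 and 0.54, and its call ended at 0.0629 without 2 h replicate 3. Without 2 h replicate 3 the list had 1 higher call, while MYC and MIR17HG passed in all 3 fits that left out a 2 h array.

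The other genes among the 15 lowest had varied roles. TFAP2B, which encodes the transcription factor AP-2 beta, had −0.96, −0.92 and −0.83 (−0.87 ± 0.15), and its adjusted p was 0.0737 without 2 h replicate 3. PLD6, a mitochondrial outer-membrane enzyme of the phospholipase D family, had −0.78, −0.77 and −0.80 (−0.79 ± 0.10, adjusted p = 3.51e-04), close to the same value on all arrays. NFYA, the DNA-contacting subunit of the CCAAT-binding factor NF-Y, had −0.76, −0.67 and −0.62 (−0.68 ± 0.06, adjusted p = 5.19e-05). The 2 other NF-Y subunits did not pass. CBFA2T3, a corepressor of the ETO family that works in erythroid complexes, had −0.60, −0.76 and −0.62 (−0.64 ± 0.06). PPRC1, a relative of the coactivator PGC-1, was at −0.67 ± 0.07, ZNF692 at −0.69 ± 0.08, ZBTB3 at −0.70 ± 0.10, and UNK, an RNA-binding zinc finger protein, at −0.69 ± 0.10. B9D2, a protein of the ciliary transition zone, was lower (−0.64 ± 0.10) on each array. MEPCE, the enzyme that caps the 7SK RNA, was lower at −0.73 ± 0.12, with an adjusted p of 0.06 without 2 h replicate 3. CXCL1, a chemokine, had −1.21, −0.47 and −0.41, so that most of its fall lay in replicate 1, and its adjusted p was 0.272, 0.0585 and 0.0631 with 2 h replicate 1, 2 or 3 left out.

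Some genes that slow the cell cycle were higher at 2 h. Of 7 measured cyclin-dependent kinase inhibitors 3 (42.9%) rose and 0 fell, beside 4.82% and 1.53% of all genes. The median of the list was 0.14 against 0.00 over all genes. CDKN2D was the highest. CDKN1A, which encodes p21, had 0.61, 0.55 and 0.52 (0.54 ± 0.11, adjusted p = 0.0115), with its 11 probes between 0.05 and 0.61. Its values were close on the 3 arrays, yet the call ended in each fit with 2 arrays at 2 h (adjusted p = 0.0767, 0.0511 and 0.159 with 2 h replicate 1, 2 or 3 left out). CDKN1B, which encodes p27, was at 0.28 ± 0.07 and likewise lost its call (adjusted p = 0.0744, 0.246 and 0.21 with 2 h replicate 1, 2 or 3 left out). CDKN2D was therefore the 1 inhibitor called in every such fit.

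Of 21 growth arrest genes 8 (38.1%) rose and 0 fell, beside 4.82% and 1.53% of all genes. In this list 5, 5 and 4 were called without 2 h replicate 1, 2 and 3. ING2, a reader of methylated histone H3 in a deacetylase complex, had 0.51, 0.52 and 0.89 (0.67 ± 0.08, adjusted p = 2.15e-04). PLK3, a stress-induced polo-like kinase, had 0.24, 0.34 and 0.88 (0.56 ± 0.08), with replicate 3 far above the others. ING1, the founding member of the ING family, had 0.32, 0.43 and 0.42 (0.40 ± 0.05, adjusted p = 2.71e-04). SESN2, a sestrin that restrains mTORC1, had 0.45, 0.41 and 0.43 (0.46 ± 0.12), and its call ended in each fit with an array left out (adjusted p = 0.249, 0.182 and 0.193 with 2 h replicate 1, 2 or 3 left out) and with the thawing as a random block (0.057).

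K562 is known to lack functional p53. Of 22 p53 target genes 8 (36.4%) rose and 0 fell, beside 4.82% and 1.53% of all genes. Their median was 0.18, and 3, 5 and 3 were called without 2 h replicate 1, 2 and 3. TNFRSF10B, which encodes the death receptor DR5, had 0.97, 0.67 and 0.61 (0.71 ± 0.11, adjusted p = 0.00119), and its 2 probes gave 0.28 and 1.15. TP53INP1, a stress protein that promotes autophagy and arrest, had 0.78, 0.57 and 0.72 (0.69 ± 0.16), and its adjusted p was 0.136, 0.0639 and 0.189 with 2 h replicate 1, 2 or 3 left out. CDKN1A, PLK3 and SESN2 belong to this list as well. Of 39 genes that encode BCL2 relatives, caspases or death receptors, 5 (12.8%) rose and 1 (2.56%) fell, beside 4.82% and 1.53% of all genes. In this list 3, 3 and 3 were called higher without 2 h replicate 1, 2 and 3. Besides TNFRSF10B these included APAF1, the scaffold of the apoptosome (0.77, 0.56 and 0.64; 0.64 ± 0.10), and BAK1, which opens pores in mitochondria (0.41, 0.45 and 0.71; 0.59 ± 0.06). Both were higher on all 3 arrays and passed with any 2 h array left out, and with all arrays the adjusted p was 0.00134 for APAF1 and 1.34e-04 for BAK1.

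In limma 0 of 26 mitotic genes and 0 of 38 DNA replication genes passed, with medians of −0.01 and −0.03. Shares of 4.82% and 1.53%, those of all genes, would amount to few calls in lists of this size, and the difference was not tested. With all arrays scaled alike 1 mitotic gene was higher and 2 were lower, and 2 replication genes were higher and 2 lower. Of 17 G1 cyclins, their kinases and pocket proteins, 0 rose and 1 fell. The fall was not called in any of the 3 fits with a 2 h array left out, and 0, 1 and 0 genes of the list were higher without 2 h replicate 1, 2 and 3.

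Immediate early genes, which respond to growth factors and stress without new protein synthesis, rose in part. Of 29 measured, 9 (31.0%) rose and 0 fell, beside 4.82% and 1.53% of all genes. In this list 3, 4 and 1 were called without 2 h replicate 1, 2 and 3. IER5L had 0.80, 0.91 and 1.16 (0.99 ± 0.09, adjusted p = 4.05e-05) and was the highest. KLF10, a zinc finger factor of the TGF-beta early response, had 0.90, 0.55 and 0.66 (0.69 ± 0.11), and its adjusted p was 0.0501 without 2 h replicate 3. IER3 had 0.66, 0.49 and 0.92 (0.71 ± 0.13; adjusted p = 0.121 without 2 h replicate 3). ZFP36, which encodes tristetraprolin, a protein that speeds the decay of AU-rich messenger RNAs, had 0.70, 0.48 and 0.68 (0.62 ± 0.11; adjusted p = 0.0566 and 0.106 with 2 h replicate 1 or 3 left out). JUN had 0.24, 0.79 and 0.81, lower on replicate 1 than on the other two (0.64 ± 0.17; adjusted p = 0.0566, 0.243 and 0.373 with 2 h replicate 1, 2 or 3 left out). FOS had 0.51, 0.43 and 0.31 (0.38 ± 0.09; adjusted p = 0.144, 0.0803 and 0.269 with 2 h replicate 1, 2 or 3 left out). EGR1, a classic member of this class, had 0.13, −0.34 and 0.09 and did not pass (−0.04 ± 0.16, adjusted p = 0.974). IER5L was the 1 gene of this list that passed in each fit with a 2 h array left out.

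Feedback genes of signalling showed a mixed picture. Among 16 DUSP, Sprouty and SPRED genes, which damp the MAP kinase pathway, 4 (25%) rose and 0 fell, beside 4.82% and 1.53% of all genes. In this list 0, 2 and 0 were called without 2 h replicate 1, 2 and 3. SPRY2 was the highest (0.60, 0.45 and 0.44; 0.46 ± 0.09), but its call and that of SPRED1 (0.33 ± 0.07) ended at an adjusted p of 0.0538 and 0.14 with 2 h replicate 1 or 3 left out for SPRY2, and 0.109 and 0.162 with 2 h replicate 1 or 3 left out for SPRED1. Among 25 genes of NF-kB and cytokine feedback 3 (12%) rose and 3 (12%) fell, beside these same shares of all genes. Without 2 h replicate 1, 2 and 3 there were 1, 1 and 1 higher and 0, 1 and 0 lower. NFKBIE, an inhibitor of NF-kB, had 0.82, 0.62 and 0.71 (0.73 ± 0.07, adjusted p = 5.67e-05). PIM1, a kinase induced by STAT5, had −0.55, −0.70 and −0.77 (−0.71 ± 0.19), SOCS1 had −0.85, −0.47 and −0.49 (−0.59 ± 0.15), and CISH had −0.55, −0.42 and −0.37 (−0.43 ± 0.09). SOCS1 and CISH encode feedback inhibitors of the JAK-STAT pathway. These 3 genes were below 0 on every array, with replicate 1 lowest for SOCS1 and CISH and highest for PIM1. Their calls did not hold: the adjusted p was 0.162, 0.192 and 0.242 with 2 h replicate 1, 2 or 3 left out for PIM1, 0.232, 0.0651 and 0.211 with 2 h replicate 1, 2 or 3 left out for SOCS1, and 0.103 and 0.116 with 2 h replicate 1 or 3 left out for CISH. NFKBIE passed in all of these fits.

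Among receptors and ligands of the cell surface, members of the Frizzled and ephrin-A families rose. Of 10 measured Frizzled genes, which encode the seven-pass receptors for Wnt proteins, 7 rose and 0 fell, with a median of 0.34. FZD4 had 0.86, 0.89 and 0.60 (0.72 ± 0.14), although its 2 probes gave 0.05 and 1.39, and its adjusted p was 0.11 without 2 h replicate 3. FZD2 had 0.63, 0.60 and 0.75 (0.67 ± 0.09, adjusted p = 7.62e-04). FZD7 had 0.73, 0.42 and 0.32 (0.43 ± 0.11; adjusted p = 0.212 and 0.273 with 2 h replicate 1 or 3 left out). FZD1, FZD3, FZD5 and FZD6 were between 0.20 and 0.36, and the 3 members that did not pass, FZD8, FZD9 and FZD10, were at 0.09, −0.05 and −0.04. All 7 risen genes were above 0 on each array. Without 2 h replicate 1, 2 and 3, 3, 6 and 2 of them were called. FZD1 and FZD2 passed each time. The call of FZD3 ended at an adjusted p of 0.143 and 0.0986 with 2 h replicate 1 or 3 left out, that of FZD5 at 0.158, 0.114 and 0.0986 with 2 h replicate 1, 2 or 3 left out, and that of FZD6 at 0.102 and 0.183 with 2 h replicate 1 or 3 left out. In the wider list of 27 Wnt feedback genes and receptors, 9 (33.3%) rose, beside 4.82% of all genes, and 0 fell. It shares members with the Frizzled family, so its counts are not a separate result. RNF43, a ubiquitin ligase that removes Frizzled receptors from the membrane, was among the risen genes (0.53, 0.21 and 0.63; 0.50 ± 0.09; adjusted p = 0.0753 and 0.0788 with 2 h replicate 1 or 3 left out). In this list 3, 7 and 2 were called without 2 h replicate 1, 2 and 3.

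Of 5 ephrin-A ligands 2 rose: EFNA1, given above, and EFNA4 with 0.79, 1.00 and 1.03 (0.93 ± 0.09, adjusted p = 6.64e-05). The other 3 ephrin-A genes and all 3 ephrin-B genes did not pass. The share of all genes that rose was 4.82%. The Frizzled, ephrin and small nucleolar host gene families were singled out after their values were seen, as were MNT, LYL1, EFNA4, CCL2 and the family members named for them.

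**Figure D3:**
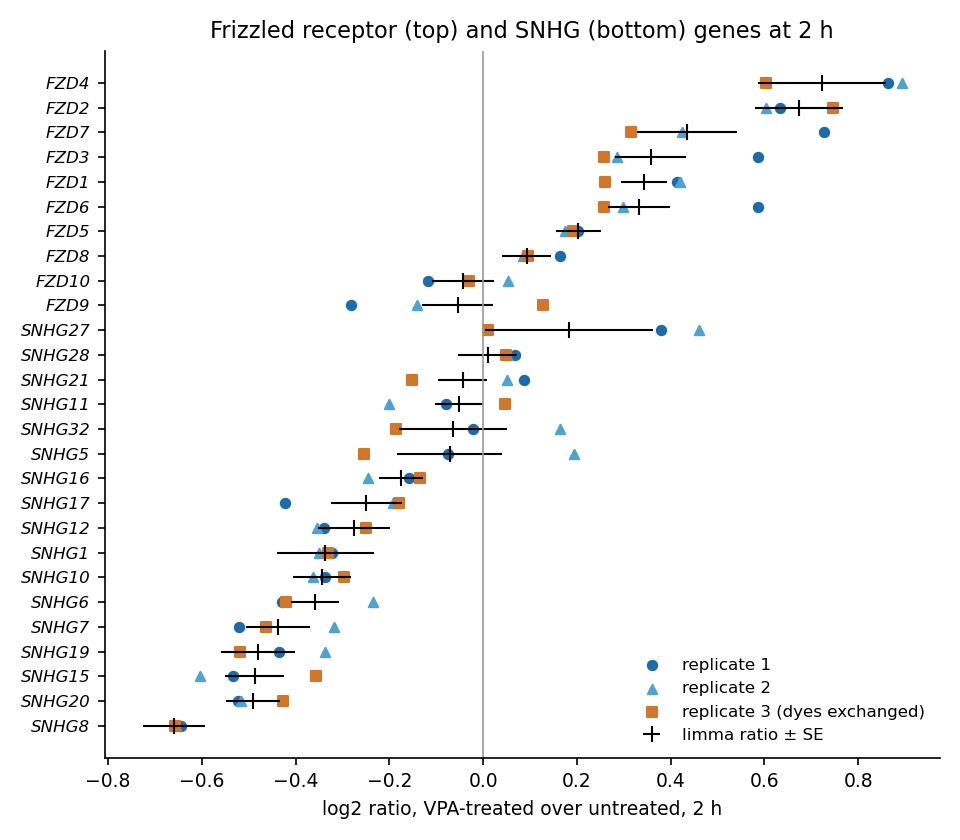
Log2 ratio of treated over untreated RNA at 2 h for 10 Frizzled receptor genes (top) and 17 SNHG genes (bottom); points are single arrays and black bars the limma ratio ± SE. The upper Frizzled genes lie to the right of 0 on all arrays and the lower SNHG genes to the left.

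The small nucleolar RNA host genes (SNHG) are long non-coding RNAs whose introns carry small nucleolar RNAs, guides for the modification of ribosomal RNA. Of 17 measured, 0 rose and 8 (47.1%) fell, with a median of −0.28. Over all genes 4.82% rose and 1.53% fell. Among the long non-coding RNA genes 1.69% rose and 1.69% fell. SNHG8 had −0.64, −0.66 and −0.66 (−0.66 ± 0.07, adjusted p = 7.82e-05), nearly the same on all arrays. SNHG20 had −0.52, −0.52 and −0.43 (−0.49 ± 0.06), SNHG15 had −0.53, −0.60 and −0.36 (−0.49 ± 0.06), and SNHG19 had −0.44, −0.34 and −0.52 (−0.48 ± 0.08). These 4 passed whichever 2 h array was left out, and 7 of the family were lower in each such fit. The highest member, SNHG27, was at 0.18 ± 0.18 and did not pass. They are 8 of the 18 long non-coding RNA genes that were lower at 2 h.

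Genes of ribosome production mostly did not pass, but their estimates lay below 0. Of 40 ribosome biogenesis genes 1 rose and 4 (10%) fell, beside 1.53% of all genes, with a median of −0.11 and 34 of the 40 below 0. PPAN, a factor of large ribosomal subunit assembly, had −0.68, −0.58 and −0.38 (−0.49 ± 0.10; adjusted p = 0.0665 and 0.154 with 2 h replicate 1 or 3 left out), and GRWD1, a histone-binding chaperone, was at −0.33 ± 0.08 (0.157 and 0.198 with 2 h replicate 1 or 3 left out). In this list 1, 3 and 0 were called lower without 2 h replicate 1, 2 and 3, against 8 with the 2 h arrays fitted alone, 18 with all arrays scaled alike and 17 with array weights. Of 37 cytosolic ribosomal protein genes 0 passed in limma, although all 37 estimates were below 0, between −0.23 and −0.02 with a median of −0.09. For these genes 0, 1 and 0 were called lower without 2 h replicate 1, 2 and 3. With all arrays scaled alike 7 were lower, and with array weights 6. Of 65 replication-dependent histone genes 0 rose and 3 (4.62%) fell, beside 4.82% and 1.53% of all genes, and 59 were below 0. In this list 0, 1 and 0 were called lower without 2 h replicate 1, 2 and 3, against 11 with all arrays scaled alike and 9 with array weights. Near-identical histone genes may share probes, so single histone values are uncertain.

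The erythroid regulators of the line were lower in part. Of 16 erythroid transcription factors and cofactors 0 rose and 5 (31.25%) fell, beside 4.82% and 1.53% of all genes, with a median of −0.17. LMO2, the bridging protein of the GATA1 and TAL1 complex, had −0.70, −0.70 and −0.61 (−0.61 ± 0.10), and its 10 probes lay between −0.65 and −0.59. NFE2, the large subunit of the globin enhancer factor NF-E2, had −0.71, −0.60 and −0.49 (−0.58 ± 0.08, adjusted p = 8.62e-04). MYB, which keeps progenitors immature, had −0.30, −0.36 and −0.70 (−0.49 ± 0.10), KLF1, which activates adult globin genes, had −0.72, −0.57 and −0.30 (−0.44 ± 0.09), and LYL1, a relative of TAL1, had −0.40, −0.38 and −0.28 (−0.32 ± 0.09). GATA1 was below 0 on all arrays (−0.33, −0.44 and −0.01) and did not pass (−0.18 ± 0.05, adjusted p = 0.0648, or 0.0401 with the thawing as a fixed block). NFE2 passed with any 2 h array left out. The adjusted p was 0.0737 without 2 h replicate 3 for LMO2, 0.148 without 2 h replicate 3 for MYB, 0.0692 and 0.204 with 2 h replicate 1 or 3 left out for KLF1, and 0.166, 0.134 and 0.403 with 2 h replicate 1, 2 or 3 left out for LYL1, whose adjusted p was 0.0511 with all arrays and the thawing as a fixed block. The number of falls was 3, 4 and 1 without 2 h replicate 1, 2 and 3.

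Of 27 erythroid effector genes, such as globins and red cell membrane proteins, 0 passed in limma at 2 h, and of 18 myeloid and megakaryocytic factors 0 passed. At the shares of all genes, 4.82% and 1.53%, lists of this size would hold few calls, and the difference was not tested. With all arrays scaled alike, which gave 2553 higher and 1322 lower over all genes, the zeros did not hold. Then 1 effector gene was higher and 4 were lower, and 6 of the factors were higher and 0 lower. KIT, the stem cell factor receptor, was at 0.18 ± 0.16 (adjusted p = 0.716) and CEBPA, a myeloid factor, at 0.21 ± 0.08 (adjusted p = 0.188).

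Genes of the chromatin machinery that VPA acts on mostly did not pass. The deacetylase genes HDAC1, HDAC2, HDAC3, HDAC5 and HDAC11 were at 0.09 ± 0.07, 0.12 ± 0.13, 0.09 ± 0.06, 0.16 ± 0.07 and 0.03 ± 0.05, and none of these 5 passed. Among 42 genes of deacetylases and their corepressors 3 (7.14%) rose, beside 4.82% of all genes, and 0 fell. The 3 were SAP30, SAP30L and SIN3A, which encode parts of the SIN3 complex. Without 2 h replicate 1, 2 and 3 there were 2, 2 and 1 calls. SAP30 had 0.75, 0.77 and 0.72 (0.74 ± 0.06, adjusted p = 2.29e-05), close to the same value on each array. SAP30L, its relative, was at 0.31 ± 0.06 and SIN3A, the scaffold, at 0.27 ± 0.06, with adjusted p of 0.068 and 0.0962 with 2 h replicate 2 or 3 left out for SAP30L, and 0.107 and 0.299 with 2 h replicate 1 or 3 left out for SIN3A. Of 27 acetyltransferase and bromodomain genes 0 rose and 3 fell, led by BRD2, which binds acetylated histones (−0.95, −0.50 and −0.54; −0.60 ± 0.08, adjusted p = 7.24e-04). The 3 falls were 11.1% of this list, beside 1.53% of all genes. Without 2 h replicate 1, 2 and 3 the falls in this list numbered 1, 1 and 1. Among 42 methylation enzymes 4 (9.52%) rose and 3 (7.14%) fell, beside 4.82% and 1.53% of all genes. KDM5B, a histone H3 lysine 4 demethylase, had 0.62, 0.52 and 0.48 (0.54 ± 0.09). TET1, which oxidises methylcytosine, had 0.62, 0.43 and 0.44 (0.49 ± 0.08). SETDB1, a histone H3 lysine 9 methyltransferase, was lower (−0.39 ± 0.07), with an adjusted p of 0.142 without 2 h replicate 3. Without 2 h replicate 1, 2 and 3, 2, 4 and 3 methylation enzymes were higher and 1, 1 and 0 lower. HEXIM1, an inhibitor of the elongation factor P-TEFb, was at −0.10 ± 0.10 and did not pass (adjusted p = 0.759).

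Large gene families are described by the share of their members called, with no test of the difference between families. Of 460 genes named ZNF, most of which encode DNA-binding zinc finger proteins, 48 (10.4%) rose and 17 (3.70%) fell, beside 4.82% and 1.53% of all genes. The share that rose was 10.9% among the 220 on chromosome 19, where such genes lie in clusters, and 10.0% among the 240 elsewhere, while 4.09% of the other 1052 genes of chromosome 19 rose. Besides ZNF823, ZNF280A had 0.91, 1.03 and 0.93 (0.96 ± 0.10), ZNF48 had 0.62, 0.86 and 0.84 (0.79 ± 0.06) and ZNF184 had 0.96, 0.74 and 0.75 (0.79 ± 0.09). The counts of ZNF genes were 26, 31 and 26 higher and 8, 9 and 5 lower without 2 h replicate 1, 2 and 3. Paralogous zinc finger genes may cross-hybridise, so single members are uncertain. Of 316 SLC transporter genes 18 (5.70%) rose and 3 (0.949%) fell, and of 208 genes named TMEM 9 (4.33%) rose and 6 (2.88%) fell. The SLC genes gave 13, 8 and 8 higher and 0, 1 and 1 lower without 2 h replicate 1, 2 and 3, and the TMEM genes 6, 6 and 4 higher and 1, 3 and 1 lower.

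Of 57 F-box genes, which encode the substrate receptors of SCF ubiquitin ligases, 10 (17.5%) rose and 1 (1.75%) fell. Over all genes the shares were 4.82% and 1.53%, beside which the next lists also stand. After single arrays were left out 4, 5 and 1 were called higher. Of 57 SOX and FOX factors 7 rose and 0 fell (5, 5 and 4 higher without 2 h replicate 1, 2 and 3), among them FOXO1, a factor of quiescence held back by AKT (1.18, 0.95 and 0.78; 0.94 ± 0.09, adjusted p = 5.21e-05), and FOXD1 (0.68 ± 0.06), whose 2 probes gave −0.02 and 1.37. Of 29 HOX genes 4 rose and 1 fell (4, 3 and 2 higher in the same fits), with HOXC13 the highest (0.76, 0.97 and 1.26; 1.01 ± 0.17; adjusted p = 0.08 without 2 h replicate 3), then HOXB6 (0.64 ± 0.07) and HOXB5 (0.61 ± 0.07), while HOXB2 fell (−0.42 ± 0.06). The other HOXB genes measured did not pass. Of 53 KCTD and KLHL adaptors 6 rose and 0 fell (3, 5 and 3 higher in the same fits), led by KLHL25 (0.93, 1.28 and 0.88; 0.99 ± 0.15).

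Among single genes of smaller lists, CDC42EP2, an effector of the small GTPase CDC42, had 1.00, 0.89 and 1.16 (1.04 ± 0.10, adjusted p = 5.29e-05). RGS16 and RGS2, which shut off G-protein signals, were at 0.83 ± 0.06 and 0.75 ± 0.08. INSIG2, which retains the sterol sensor SCAP in the endoplasmic reticulum, was at 0.67 ± 0.07, while INSIG1 did not pass (−0.03 ± 0.09). TNFRSF12A, the receptor of TWEAK, had 0.71, 0.31 and 1.34 (0.88 ± 0.15), with the array of exchanged dyes far above the others, and its adjusted p was 0.0871 without 2 h replicate 3. MICA and MICB, stress ligands seen by natural killer cells, were at 0.52 ± 0.08 and 0.57 ± 0.07; both are similar in sequence. Of 29 antigen presentation genes 3 (10.3%) rose, beside 4.82% of all genes, and 0 fell. Of 28 interferon-stimulated genes, 28 constitutive proteasome subunits and 26 respiratory chain genes 0 passed. Few calls would come from the shares of all genes, 4.82% and 1.53%, in lists of this size, and the difference was not tested. With all arrays scaled alike 5 interferon-stimulated genes were higher and 3 lower. In that setting 1 proteasome subunit was higher and 0 respiratory chain genes passed.

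**Figure D4:**
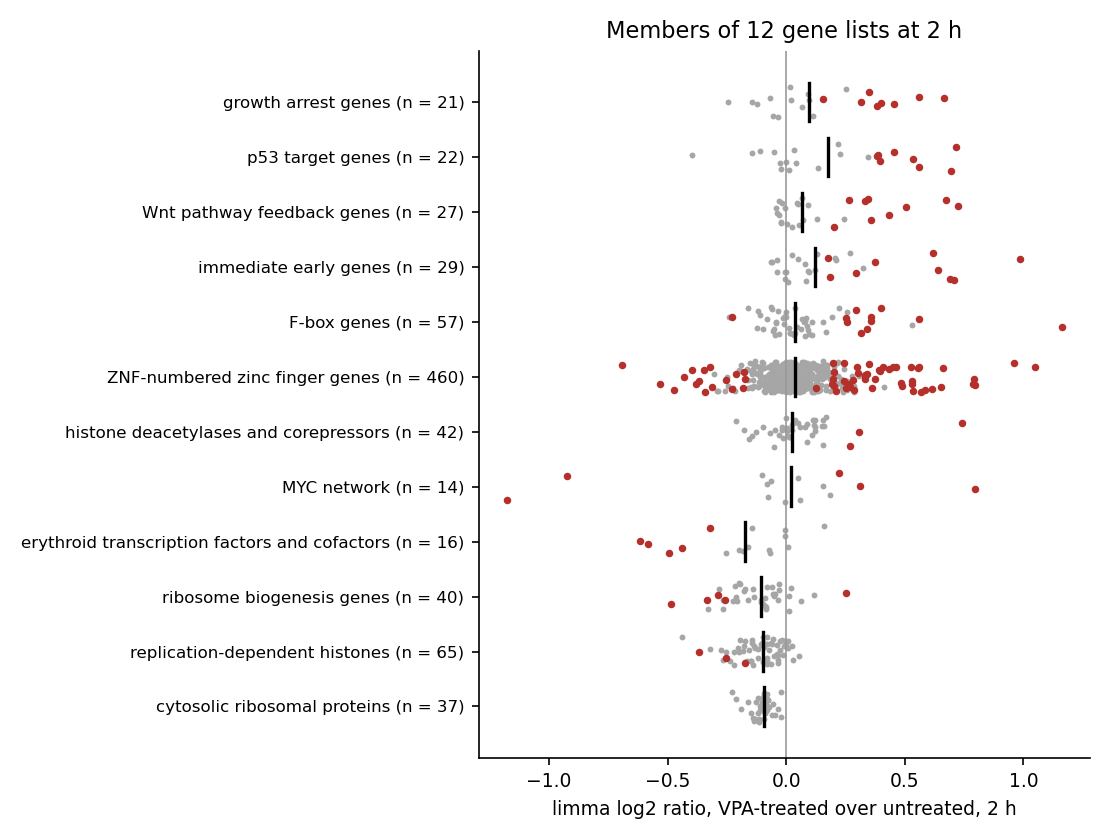
Limma log2 ratio of treated over untreated RNA at 2 h for each measured member of 12 gene lists (red points passed, grey points did not, black bars are list medians; vertical scatter within a row is random). Risen members stand out on the right in the growth arrest, p53 target, Wnt and immediate early lists, and the cytosolic ribosomal proteins lie in a narrow band just left of 0.

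Promoters of the genes that moved were compared by letter content, using 300 bases around the RefSeq start of each protein-coding gene, most of them upstream (GRCh38.p14). A promoter was found for 706 of 858 higher, 217 of 257 lower and 13627 of 16723 measured protein-coding genes. The letters GGGCGG, the GC box bound by SP and KLF factors, occurred on either strand in 78.5% of promoters of higher genes, 66.4% of lower genes and 61.7% of all measured genes. The median GC content was 67.7%, 63.0% and 63.3% in these sets, and the median number of CG dinucleotides 28, 25 and 23. Promoters of the higher genes thus held a GC box more often and also had a higher GC content. CCAAT, the letters that NF-Y binds, occurred in 290 of 706 higher, 76 of 217 lower and 4966 of 13627 measured genes. The letters TATAAA occurred in 4.96%, 6.45% and 8.55%. CACGTG, the E-box bound by MYC and MAX, occurred in 8.78%, 10.6% and 9.10%. TGACGT, the core of the cyclic AMP response element, occurred in 11.3%, 9.22% and 10.1%, and TGACTCA, the AP-1 site, in 2.55%, 1.84% and 3.52%. TGACGT and TGACTCA both start with TGAC, and GC boxes can overlap each other. These shares are descriptions of letters and were not tested.

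Promoters of 3 of the highest and 2 of the lowest genes are printed to show how GC boxes lie in them, with GGGCGG or its reverse complement CCGCCC in capitals.
MARCHF9 (chr12:57754853-57755152, plus strand): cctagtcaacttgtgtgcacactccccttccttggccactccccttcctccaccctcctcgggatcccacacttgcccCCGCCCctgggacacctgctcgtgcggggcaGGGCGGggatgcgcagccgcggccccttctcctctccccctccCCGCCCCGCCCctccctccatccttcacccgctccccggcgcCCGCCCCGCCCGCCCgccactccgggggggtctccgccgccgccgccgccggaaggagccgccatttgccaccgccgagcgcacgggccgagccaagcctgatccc
CDKN2D (chr19:10568930-10569229, minus strand): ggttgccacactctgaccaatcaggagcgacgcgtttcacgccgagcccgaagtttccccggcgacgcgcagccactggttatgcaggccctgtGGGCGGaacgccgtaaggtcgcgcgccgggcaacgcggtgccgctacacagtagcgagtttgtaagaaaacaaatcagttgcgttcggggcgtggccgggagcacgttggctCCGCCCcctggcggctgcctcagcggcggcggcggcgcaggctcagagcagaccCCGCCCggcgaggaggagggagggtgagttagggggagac
HECA (chr6:139134830-139135129, plus strand): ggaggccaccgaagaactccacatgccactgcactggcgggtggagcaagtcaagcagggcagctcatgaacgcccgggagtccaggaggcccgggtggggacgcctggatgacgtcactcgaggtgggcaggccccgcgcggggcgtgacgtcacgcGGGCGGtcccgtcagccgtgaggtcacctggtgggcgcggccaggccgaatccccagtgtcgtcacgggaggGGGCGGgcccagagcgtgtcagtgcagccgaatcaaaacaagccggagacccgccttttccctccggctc
MIR17HG (chr13:91347437-91347736, plus strand): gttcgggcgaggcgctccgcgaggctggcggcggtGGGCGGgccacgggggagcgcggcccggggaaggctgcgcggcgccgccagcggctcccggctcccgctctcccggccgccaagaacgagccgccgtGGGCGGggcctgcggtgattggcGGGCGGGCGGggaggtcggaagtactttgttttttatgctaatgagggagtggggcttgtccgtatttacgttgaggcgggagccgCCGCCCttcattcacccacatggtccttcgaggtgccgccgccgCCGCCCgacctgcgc
NFYA (chr6:41072724-41073023, plus strand): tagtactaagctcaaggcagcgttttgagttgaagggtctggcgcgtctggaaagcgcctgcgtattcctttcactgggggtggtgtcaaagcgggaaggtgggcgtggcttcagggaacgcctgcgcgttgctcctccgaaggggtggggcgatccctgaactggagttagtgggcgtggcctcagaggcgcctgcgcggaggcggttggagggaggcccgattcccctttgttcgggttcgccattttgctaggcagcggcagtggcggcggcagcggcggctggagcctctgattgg
MARCHF9 held 7 GC boxes and a GC content of 75.3%, CDKN2D held 3 and 68.0%, and HECA held 2 and 69.7%. Not printed were PNRC1, the highest gene, with 3 and 61.7%, and FZD4, also higher, with 6 and 79.7%. Among the lower genes MIR17HG held 6 and 73.0%, and NFYA held 0 and 63.7%. Both directions of change thus occurred with GC boxes.

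The ratios at 2 h were then set against those of the later times, which came from other arrays but share the thawings, the dye orientations and each gene's pooled estimate of spread. Of the 884 genes higher at 2 h, 778 (88.0%) were also called higher at 6 h, 678 (76.7%) at 10 h, 601 (68.0%) at 48 h and 547 (61.9%) at 72 h, beside 19%, 18.1%, 23.3% and 22.1% of all genes at these times. Of the 281 genes lower at 2 h, 235 (83.6%) were called lower at 6 h, 214 (76.2%) at 10 h, 164 (58.4%) at 48 h and 136 (48.4%) at 72 h, beside 9.66%, 11.6%, 14.6% and 13.6%. No later call was made for 40 of the higher and 9 of the lower genes, and a call in the opposite direction was made at some later time for 60 and 37.

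The difference itself was tested as the ratio at 2 h minus the mean ratio of the 4 later times. It was more positive at 2 h for 1188 genes (6.48%) and more negative for 2141 (11.7%). Among the 884 higher genes the 2 h ratio exceeded the later mean for 172 and was below it for 163. Among the 281 lower genes it was more negative than the later mean for 56 and less negative for 26. Without 2 h replicate 1, 2 and 3 the contrast passed for 546, 719 and 480 genes more positive at 2 h and for 1384, 1487 and 1350 more negative.

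Some genes rose at 2 h and had smaller or opposite ratios at later times. OSR2, a zinc finger factor of the odd-skipped family, had 0.84, 0.74 and 0.80 at 2 h (0.80 ± 0.05), then 0.49 at 6 h, 0.37 at 10 h, −0.11 at 48 h and −0.04 at 72 h, a difference of 0.62 ± 0.06 (adjusted p = 2.27e-05). SLC19A2, a thiamine transporter, had 0.79, 0.51 and 0.43 at 2 h (0.52 ± 0.06), then 0.07 at 6 h, 0.10 at 10 h, −0.21 at 48 h and −0.47 at 72 h. BCAR3, a guanine nucleotide exchange factor adaptor of the p130Cas pathway, had 0.78, 0.35 and 0.63 (0.62 ± 0.13), then −0.08 at 6 h, −0.16 at 10 h, −0.41 at 48 h and −0.16 at 72 h, and its 2 h call had an adjusted p of 0.148 and 0.0967 with 2 h replicate 1 or 3 left out. EFNA1 and EFNA4 had their highest ratios at 2 h, with differences of 0.58 ± 0.11 and 0.53 ± 0.10, but did not return early. EFNA1 was still called higher at each later time, at 0.72, 0.61, 0.60 and 0.35 at 6, 10, 48 and 72 h. EFNA4 was at 0.58, 0.43, 0.38 and 0.24 and was called at all of these times but 72 h. SRRD (0.15 ± 0.04), PRXL2C (0.26 ± 0.07) and KIR2DL5A (0.54 ± 0.13) passed the same contrast with small or uneven ratios at 2 h. Their 2 h calls ended, at an adjusted p of 0.138, 0.157 and 0.463 with 2 h replicate 1, 2 or 3 left out for SRRD, 0.331 and 0.168 with 2 h replicate 1 or 3 left out for PRXL2C, and 0.0566 and 0.0787 with 2 h replicate 1 or 2 left out for KIR2DL5A, which had 0.52, 1.30 and −0.02 on the arrays. With the thawing as a fixed block the adjusted p of SRRD was 0.0582.

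The falls of MYC and of several factors were deepest at 2 h. MYC was at −0.92 at 2 h, then −0.28 at 6 h, −0.20 at 10 h, −0.25 at 48 h and −0.51 at 72 h (difference −0.61 ± 0.12, adjusted p = 0.00443). MIR17HG was at −1.18, then −0.95 at 6 h, −0.61 at 10 h, −0.64 at 48 h and −0.39 at 72 h (difference −0.53 ± 0.12, adjusted p = 0.00811). CBFA2T3 was at −0.64, then −0.29 at 6 h, 0.03 at 10 h, −0.01 at 48 h and 0.31 at 72 h (difference −0.65 ± 0.07). These 3 genes were thus nearer to the untreated level at each later time than at 2 h. MYB and NFE2 ended above the untreated level: MYB was at −0.49 at 2 h and 0.77 at 48 h, and NFE2 at −0.58 at 2 h and 0.47 at 72 h. CCL2, a monocyte-attracting chemokine, turned furthest, with −0.79, −0.69 and −0.43 at 2 h (−0.63 ± 0.07) and 1.34 and 2.08 at 48 h and 72 h.

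Some of the strongest later risers were already higher at 2 h, at a small part of their later size. Of the 20 highest genes at 10 h, 9 were called higher and 0 lower at 2 h, beside 4.82% and 1.53% of all genes, with a median of 0.49 at 2 h and 2.22 at 10 h. Of the 50 highest at 10 h, 19 were called higher at 2 h and 0 lower, with medians of 0.44 at 2 h and 1.91 at 10 h. FBXL16 was at 1.16 at 2 h and 3.05 at 10 h. S100A10, the annexin A2 partner, had 0.63, 0.94 and 0.72 at 2 h (0.72 ± 0.09, adjusted p = 3.33e-04), then 1.72 at 6 h, 2.23 at 10 h, 3.61 at 48 h and 3.81 at 72 h. PLAAT3, a phospholipase, was at 0.41 ± 0.10 at 2 h and 3.89 at 72 h, REEP2 at 0.48 ± 0.12 and 2.77, EMILIN2 at 0.59 ± 0.15 and 3.05, and SLC30A3, a zinc transporter, at 0.76 ± 0.17 and 2.46. The 2 h calls of these 4 genes ended when arrays were left out, with an adjusted p of 0.0607, 0.158 and 0.134 with 2 h replicate 1, 2 or 3 left out for PLAAT3, 0.0929, 0.167 and 0.347 with 2 h replicate 1, 2 or 3 left out for REEP2, 0.0726, 0.229 and 0.213 with 2 h replicate 1, 2 or 3 left out for EMILIN2, and 0.0854 and 0.29 with 2 h replicate 2 or 3 left out for SLC30A3. ARHGEF40 was at 0.81 ± 0.14 (adjusted p = 0.0771 without 2 h replicate 3) and 2.31 at 10 h. AIF1L, MARCKS, CSRP2, TMEM132A and HOMER3, also among the 10 highest at 10 h, did not pass at 2 h, at 0.21, 0.69, 0.45, 0.24 and 0.45. With the thawing as a fixed block MARCKS passed (adjusted p = 0.0475). EGR1 and KIT, which did not pass at 2 h, were at 1.37 and 0.52 at 6 h, with differences between 2 h and later of −1.56 ± 0.17 and −1.12 ± 0.18.

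**Figure D5:**
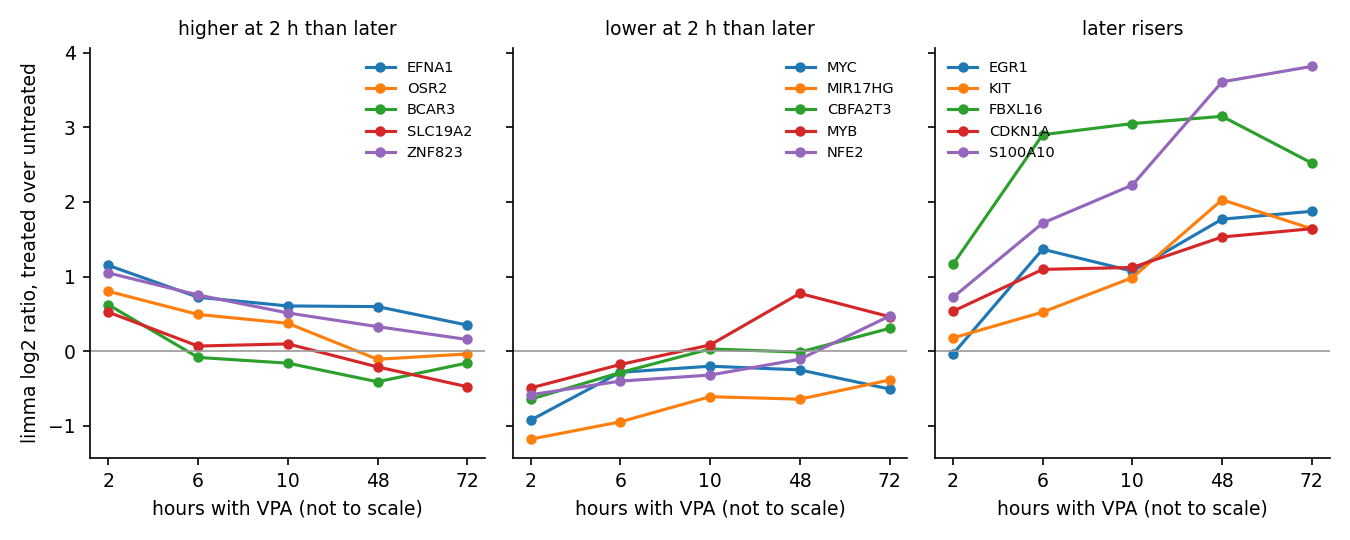
Limma log2 ratio of treated over untreated RNA at 2, 6, 10, 48 and 72 h (horizontal axis, evenly spaced and not to scale) for 15 genes in 3 panels. Lines join the estimates; OSR2, BCAR3 and SLC19A2 are highest at 2 h, MYC and MIR17HG lowest at 2 h, and EGR1 and KIT start near 0.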

How the data were processed

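Values came from the deposited table of 45220 probes on 15 arrays, which the labels describe as treated over untreated; the authors' base was not stated and the deposited values were taken as log2 ratios. Per the submitters' processing notes limma was used, with no version. Background correction and normalization are not given in the sources used here, nor are intensities, so no dim probe was removed. Per the labels' protocols, total RNA was isolated by Trizol and cleaned on columns before it was labelled.

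Probes with 1 gene symbol (31332) were averaged to 18334 genes, 7759 of them with over 1 probe; 93 probes with several symbols and 13795 with none were left out, and 31291 probes were updated through the RefSeq gene table. Direction follows the labels, with replicate 3 as deposited. The model, run with limma 3.58.1 (lmFit, eBayes) under R 4.3.3, had 5 time means plus a dye term, with 9 residual degrees of freedom. The dye term passed for 3693 genes and cannot be told apart from the thawing of replicate 3. The median SE at 2 h was 0.06 on the log2 scale. Benjamini-Hochberg adjustment ran over all genes, with calls at an adjusted p under 0.05. Errors are SEs.

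The lists and the rule for named genes were chosen with earlier results of these data known. The rule took the 15 highest and 15 lowest passing genes of 1 sign, up to 4 per list, 6 each way of the contrast between 2 h and later, the 10 highest at 10 h, and a set followed by name. Uncharacterised loci and pseudogenes were left out. Lists (51, with 2360 measured genes) are described by counts, to be read beside 4.82% higher and 1.53% lower over all genes.

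The labels pair arrays of the same number by thawing. Mean residual correlations within a thawing were 0.183 (replicate 1), 0.153 (replicate 2) and 0.525 (replicate 3) when no dye term was fitted. With a dye term they were −0.0573, −0.0526 and −0.243. The alternatives covered the dye term, the arrays fitted, scaling, centring, weights, prior, replicate block, orientation, probe summary, threshold and each array left out. Array number limits the precision.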

Additional observations from a re-analysis of the deposited data

Results flagged for a closer look

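The ratio at 2 h differed from the mean of the 4 later times, by limma's test of that difference, for several genes named above. It was more positive at 2 h for BCAR3 (0.82 on the log2 scale), SRRD (0.74), PRXL2C (0.66), SLC19A2 (0.65), KIR2DL5A (0.64) and OSR2 (0.62). It was more negative at 2 h for genes with higher ratios at later times: PLAAT3 (−2.43), REEP2 (−2.27), S100A10 (−2.12), EMILIN2 (−1.98), FBXL16 (−1.74), SLC30A3 (−1.72), EGR1 (−1.56), KIT (−1.12), CDKN1A (−0.81), FOS (−0.81), CDKN2D (−0.54) and GLRX (−0.50). It was also more negative for MYB (−0.78), MYC (−0.61), MIR17HG (−0.53) and NFE2 (−0.49), which fell at 2 h.

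Probes without a gene, which the comparisons do not use, also gave calls at 2 h. By the same limma fit 140 of the 13795 were higher and 62 lower. Of these called probes 200 had the same sign on all 3 arrays, which the selection favours. At 2 h the strongest probes without a gene mostly changed sign with the dyes, as described above. Those above 1 on both replicates 1 and 2 numbered 108, 136, 154, 214 and 201 at 2, 6, 10, 48 and 72 h. Of these 106, 108, 114, 103 and 106 were below −1 on replicate 3, and 2, 28, 39, 110 and 95 were above 0. The number below −1 was thus alike at every time, but its share was smaller at the later times. What the probes without a gene measure is not given in the sources used here.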

How the results depend on the processing

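The numbers of genes called moved with scaling and weighting: with all arrays scaled alike 2553 genes were higher and 1322 lower at 2 h, and with array weights 2230 and 1023. At an adjusted p under 0.01, 462 and 121 were called. Genes with 1 probe gave 416 and 134, with fewer genes tested. Leaving out 1 of the 2 h arrays gave 328 to 532 higher and 70 to 157 lower, and leaving out replicate 1, 2 and 3 at all times gave 485, 639 and 462 higher and 108, 211 and 150 lower. For 2 h minus later times, genes more positive at 2 h numbered 704 without the dye term, 2252 with array weights, 554 among genes with 1 probe and 508 at the stricter threshold. They numbered 480 to 719 without 1 of the 2 h arrays and 524, 779 and 276 without replicate 1, 2 and 3 at all times. Genes more negative at 2 h numbered 3297 with array weights, 1148 among genes with 1 probe and 1323 at the stricter threshold. They numbered 1350 to 1487 without 1 of the 2 h arrays and 1249, 1656 and 987 without replicate 1, 2 and 3 at all times. The causes of these shifts were not tested. No dye term, the 2 h arrays alone, the early times alone, centring, a robust prior and the median of probes each kept the 2 h counts within 1.5 times.

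With the thawing number as a fixed replicate block beside the dye term, 924 and 296 genes were called at 2 h, and 896 and 291 with a random block. The block turned no direction among the genes named, and the 5 calls it changed stand beside those genes.

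Turning replicate 3 sets it against the other arrays of its time, so fewer calls had to follow. The dye term was kept in these fits. When replicate 3 is turned at every time, that term takes up the ratio that the times share. A 2 h estimate can then turn its sign because the later ratios were larger. The turned signs given here therefore do not bear on the direction at 2 h. With replicate 3 turned at 2 h, 0 genes were called at 2 h in either direction. With it turned at every time 0 were called in any of the 4 counts. In the first case the estimates of PLK3 (−0.0866), SRRD (−0.0423) and TNFRSF12A (−0.10) fell below 0 and that of MYB (0.0187) rose above it. In the second the estimates of ARHGEF40 (−0.44), BAK1 (−0.0811), CDC42EP2 (−0.00325), CDKN1A (−0.18), CDKN2D (−0.10), EMILIN2 (−0.48), FBXL16 (−0.27), FOS (−0.13), FOXD1 (−0.0249), FZD2 (−0.0709), HECA (−0.0314), HOXC13 (−0.19), IER3 (−0.29), IER5L (−0.23), ING2 (−0.12), JUN (−0.21), KLHL25 (−0.15), MARCHF9 (−0.15), NFKBIE (−0.0957), PLAAT3 (−0.80), PLK3 (−0.34), PNRC1 (−0.20), REEP2 (−0.67), RGS16 (−0.12), RNF122 (−0.0557), RNF43 (−0.0504), S100A10 (−0.52), SAP30L (−0.0511), SLC30A3 (−0.37), TNFRSF12A (−0.34), TP53INP1 (−0.15) and ZFP36 (−0.0459) fell below 0 and those of GRWD1 (0.0166), PLD6 (0.12), SNHG19 (0.0517), SNHG8 (0.0291), SNORA70 (0.00482), SNORD14E (0.00203) and ZFP36L2 (0.011) rose above it.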

Other observations

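Proteins that bind and destabilise messenger RNA moved in both directions at 2 h. MEX3A had 0.91, 0.77 and 0.76 (0.80 ± 0.07) and MEX3C had 0.61, 0.64 and 0.41 (0.53 ± 0.04); both belong to a family of RNA-binding ubiquitin ligases and were chosen after their values were seen. ZFP36L2, a relative of ZFP36, fell, with −0.58, −0.17 and −0.45 (−0.42 ± 0.10; adjusted p = 0.23 and 0.188 with 2 h replicate 1 or 3 left out). DGCR8, which recognises primary microRNA transcripts for DROSHA, fell as well (−0.67, −0.34 and −0.52; −0.52 ± 0.07). Of 33 genes of RNA decay and 3′ end processing, 4 (12.1%) rose and 2 (6.06%) fell, beside 4.82% and 1.53% of all genes. In this list 1, 3 and 2 were higher and 1, 2 and 1 lower without 2 h replicate 1, 2 and 3.

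Of 5 small nucleolar RNA genes with probes of their own 0 rose and 3 (60%) fell, beside 4.82% and 1.53% of all genes. SNORA70 had −0.51, −0.53 and −0.62 (−0.57 ± 0.05), SNORD14E had −0.49, −0.52 and −0.56 (−0.51 ± 0.10) and SNORD22 had −0.53, −0.68 and −0.21 (−0.44 ± 0.09). All 3 lie within introns of host genes, and whether a probe reported the small RNA or its host transcript was not tested. SNORA70 passed with any 2 h array left out, while the adjusted p was 0.0501 and 0.194 with 2 h replicate 1 or 3 left out for SNORD14E, and 0.0716 and 0.102 with 2 h replicate 1 or 2 left out for SNORD22. They were chosen after their values were seen.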
